A study of Mus musculus with 8 samples.

Results

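The genes described here are 7 of the 21959 genes in the deposited table: the precursor genes Agrp, Npy, Cartpt, Kiss1 and Tac2, and the receptor genes Lepr and Ghsr. They were chosen by name, as the feeding and reproductive peptides of the arcuate nucleus and the receptors through which leptin and ghrelin reach it. All 7 are listed in the table, 6 passed the filter on low counts, and Kiss1 did not. The study concerns the effect of isoliensinine, an alkaloid of lotus, on mouse sleep. The libraries IsoL 1 to 4 came from wild-type mice labelled as given isoliensinine, and Model 1 to 4 came from wild-type mice labelled as given PCPA (para-chlorophenylalanine, which inhibits tryptophan hydroxylase and so lowers serotonin). The design text describes female mice of the outbred ICR stock, with 7 days of dosing, a pentobarbital injection 40 minutes after the final one and dissection of the hypothalamus. IsoL doses of 12.5, 25 and 50 mg/kg are listed, and the labels give neither the one that was sequenced, nor whether IsoL mice also received PCPA, nor the age of the mice. Untreated mice were not analysed here, and all differences are IsoL against Model. Nothing in the labels says that each library is a separate mouse, so the spread behind every p-value may be technical.

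The arcuate nucleus lies at the base of the hypothalamus and senses hormones from fat and gut. One population of its neurons makes agouti-related peptide (Agrp) and neuropeptide Y (Npy), which drive feeding; another makes proopiomelanocortin and, in many of its cells, the peptide precursor Cartpt, and restrains it. Leptin from fat acts through Lepr to restrain the first and excite the second, and ghrelin from the stomach acts through Ghsr to excite the first. Another population makes kisspeptin (Kiss1), neurokinin B (Tac2) and dynorphin (Pdyn) and paces the release of gonadotropin-releasing hormone. Cartpt, Npy, Tac2 and Lepr are also expressed in other brain regions or in other cell types.

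Summed counts were 15731923 to 21620466 in IsoL libraries and 14262836 to 15886850 in Model libraries, so that 3 counts corresponded to 0.137 to 0.210 CPM (counts over TMM-scaled library sizes). The tissue label reads brain. Genes of other hypothalamic nuclei were read in all 8 libraries, and so were markers of the thalamus, with summed levels of 1352 to 1653 CPM in IsoL and 1485 to 1627 CPM in Model. The Y-linked genes Ddx3y, Eif2s3y, Kdm5d and Uty summed to 5058 to 6779 counts in IsoL libraries and 4330 to 5060 counts in Model libraries, which goes against the female sex given in the design text. Model 2 stood apart from every other library over the whole table: comparing gene counts between libraries, chi-square over its degrees of freedom was 11.4 to 15.9 where Model 2 was in the pair and at most 10.1 where it was not. It also had the highest share of mitochondrial counts, 5.64%, against 4.69 to 5.11% in the other libraries. IsoL 1 and 2 carried 757 and 653 CPM of summed choroid plexus markers, against 88.9 and 36.9 CPM in IsoL 3 and 4 and 25.9 to 38.2 CPM in Model libraries.

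Kiss1 was listed at 0 counts in every library. This was not taken as a measure of its expression. All 779 of its exonic bases in the GENCODE M21 annotation (build GRCm38), coding bases included, also belong to another listed gene. A read from Kiss1 therefore cannot be placed in Kiss1 alone by position. The end of the coding sequence of Kiss1, which holds kisspeptin, is shown beside those of 2 measured precursors, Npy and Tac2, none of whose exonic bases are shared. Capitals mark the codons of a glycine followed by 2 basic residues, the signal at which a peptide is cut from its precursor and amidated. Each runs from 52 codons before the signal to the last codon before the stop, in GENCODE M21 transcripts whose coding parts span chr1:133327250-133329642 (+ strand) for Kiss1, chr6:49823598-49829324 (+ strand) for Npy and chr10:127726029-127729528 (+ strand) for Tac2 on GRCm38, with introns removed.
Kiss1: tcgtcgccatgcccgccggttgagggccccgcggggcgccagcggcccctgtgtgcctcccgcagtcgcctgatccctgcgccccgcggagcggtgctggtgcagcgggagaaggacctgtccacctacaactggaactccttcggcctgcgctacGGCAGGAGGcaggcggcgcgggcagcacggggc
Npy: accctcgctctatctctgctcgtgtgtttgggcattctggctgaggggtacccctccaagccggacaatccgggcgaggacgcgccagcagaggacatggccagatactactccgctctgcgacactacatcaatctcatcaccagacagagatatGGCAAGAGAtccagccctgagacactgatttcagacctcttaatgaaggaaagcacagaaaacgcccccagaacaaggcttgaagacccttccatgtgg
Tac2: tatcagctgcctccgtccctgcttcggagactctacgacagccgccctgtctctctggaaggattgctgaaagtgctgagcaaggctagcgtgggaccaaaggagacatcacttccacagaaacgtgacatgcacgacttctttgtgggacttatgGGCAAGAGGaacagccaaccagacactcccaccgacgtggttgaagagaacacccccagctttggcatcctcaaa
In all 3 precursors the active peptide ends just before the capitals. The signal starts at codon 116 of 126 in Kiss1, at codon 65 of 97 in Npy and at codon 92 of 116 in Tac2. All 378 coding bases of Kiss1 are shared, against 0 of 291 in Npy and 0 of 348 in Tac2.

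The genes that share Kiss1's bases held almost no counts either. Gm28040 is listed under 2 identifiers on the same strand: ENSMUSG00000098306 covers all 779 exonic bases of Kiss1 and had 0 counts in every library, and ENSMUSG00000115958 covers 498 of them and had 2 counts in Model 2, 1 count in Model 4 and 0 elsewhere. Golt1a shares 102 bases and had 1 count in Model 1, 1 count in Model 4 and 0 elsewhere. Of the 21851 listed genes matched to GENCODE M21, 156 had every exonic base shared with other listed genes, and 156 of these 156 were at 0 in all 8 libraries. Of the genes with some shared bases, 207 of 3521 (5.88%) were at 0, and of those with none, 3089 of 18174 (17.0%) were. How the counting treated reads that fall in more than 1 gene is not stated in the sources, so the cause of the 0 was not tested. Kisspeptin is left out of the comparisons that follow.

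**Figure D1:**
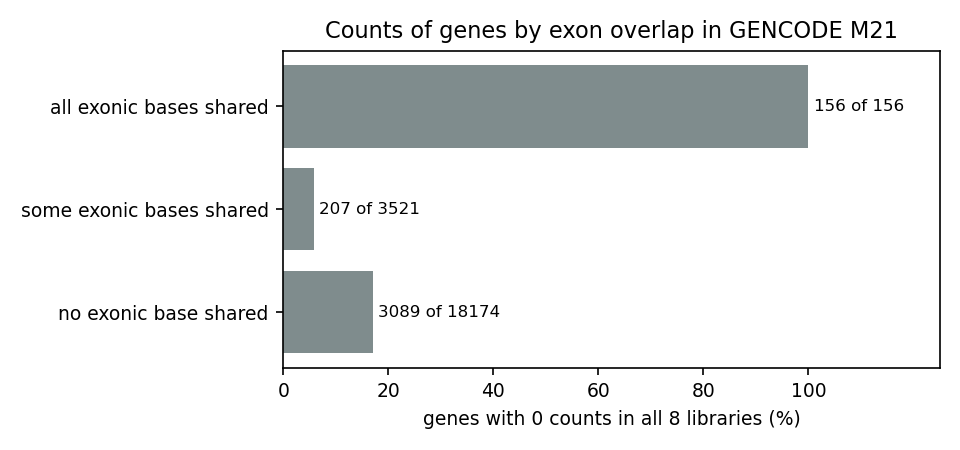
Share of genes (%, x axis) with 0 counts in all 8 libraries, for genes whose exonic bases are all, partly or not shared with another listed gene. All 156 genes of the fully shared class, Kiss1 among them, are at 0, against 207 of 3521 and 3089 of 18174 in the other classes.

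Among the other genes, only Agrp shares exonic bases, 114 of 1013 (11.3%) with Ctcf on the opposite strand, and none of its 393 coding bases. Reads there cannot be told apart if the counting ignored strand. Ctcf had 1304 to 1858 counts in IsoL libraries and 1181 to 1265 in Model libraries, against 15 to 48 counts per library for Agrp. The part of Ctcf reads in the Agrp counts, and so in every Agrp value below, was not tested. The table places Agrp on chromosome 8 at 106293330 to 106364025 (- strand), Npy on chromosome 6 at 49799690 to 49806487 (+) and Cartpt on chromosome 13 at 100034997 to 100037599 (-). It places Tac2 on chromosome 10 at 127560347 to 127567637 (+), Lepr on chromosome 4 at 101574601 to 101672549 (+) and Ghsr on chromosome 3 at 27425500 to 27432159 (+). The sources used here do not name the build of these positions, which are not those of GRCm38, though each gene's span and exonic length equal those in GENCODE M21. Lepr has 4 protein-coding transcripts there, which include the long signalling and short forms of the receptor, and its gene counts do not separate them.

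Levels can be compared between genes only per gene length, as the deposited FPKM (fragments scaled to gene length and library size). Cartpt was the most abundant of the 6 genes with counts, at 29.0 ± 3.54 FPKM (SD over 8 libraries, range 24.7 to 33.7). Its range lay above that of every other gene of these 6. Npy at 8.92 ± 2.38 FPKM and Tac2 at 8.65 ± 2.29 FPKM did not differ beyond their spread, with ranges of 4.11 to 11.5 and 6.23 to 13.2. Agrp at 1.76 ± 0.532, Lepr at 1.59 ± 0.438 and Ghsr at 1.47 ± 0.238 FPKM formed the lowest level, and their ranges of 0.932 to 2.56, 0.994 to 2.37 and 0.965 to 1.71 overlapped. Npy was thus well above Agrp in the same libraries, and the 2 ranges did not overlap.

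Beside other hypothalamic precursor genes, chosen after their values were seen, levels are given by group, since the group means of several of those genes lay far apart. Cartpt averaged 27.4 ± 2.43 FPKM in IsoL and 30.6 ± 4.02 FPKM in Model. Hcrt (orexin) averaged 35.2 ± 8.93 FPKM in IsoL and 71.7 ± 18.5 FPKM in Model, and Pmch (melanin-concentrating hormone) 25.0 ± 5.11 FPKM in IsoL and 46.3 ± 6.73 FPKM in Model, so that the Cartpt mean lay above that of Pmch in IsoL and below it in Model. Avp (vasopressin) averaged 33.7 ± 19.2 FPKM in IsoL and 73.8 ± 53.2 FPKM in Model. Trh at 19.6 ± 5.03 FPKM in IsoL and 29.4 ± 4.43 FPKM in Model, and Gal (galanin) at 15.6 ± 5.44 FPKM in IsoL and 21.3 ± 2.76 FPKM in Model, had means below Cartpt in both groups. Pomc, the precursor of the peptide that Agrp opposes at melanocortin receptors, averaged 5.18 ± 1.38 FPKM in IsoL and 4.36 ± 1.05 FPKM in Model, between Npy and Agrp. Among all 14536 tested genes Cartpt stood at the 89.6th percentile of mean FPKM, Npy at 63.5, Tac2 at 62.6, Agrp at 23.4, Lepr at 21.8 and Ghsr at 20.3.

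**Figure D2:**
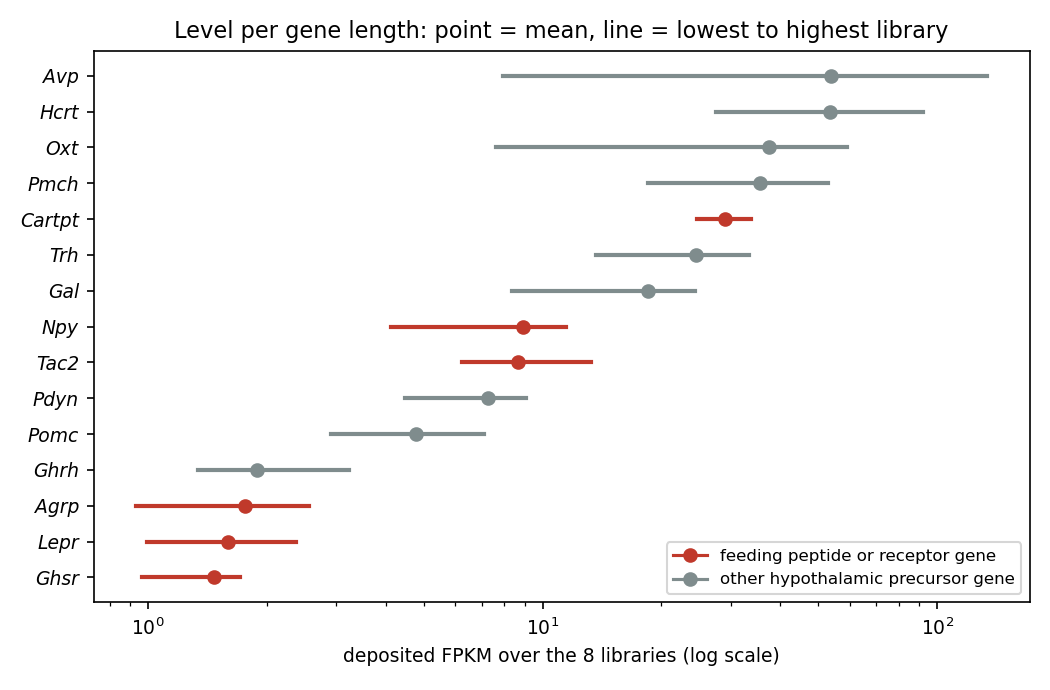
Deposited FPKM over the 8 libraries (x axis, log scale), with the mean as a point and the lowest to highest library as a line, both groups pooled, for the 6 genes with counts (red) and other hypothalamic precursor genes (grey). Cartpt is highest of the 6, Npy and Tac2 overlap (4.11 to 13.2 FPKM together), and Agrp, Lepr and Ghsr overlap at the low end (0.932 to 2.56 FPKM together).

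None of the 6 tested genes passed the test between IsoL and Model. In edgeR's quasi-likelihood test with Benjamini-Hochberg adjustment over all tested genes, 0 of 6 passed an adjusted p of 0.05, where 40 genes (0.275%) passed across the table, 23 lower and 17 higher in IsoL. At an unadjusted p under 0.05 the count was also 0 of 6, against 13.2% of all tested genes, and DESeq2 and limma voom called 0 of 6 each, against 2.14% and 1.64%. The IsoL mean was lower for Cartpt, Tac2, Lepr and Ghsr and higher for Agrp and Npy, and 50.5% of all tested genes were lower. Their median log2 fold change was -0.16, against -0.0015 over all tested genes. The IsoL and Model libraries overlapped for each of the 6, where 8.48% of all tested genes did not overlap, 4.42% with all IsoL libraries below all Model libraries. In bulk tissue, fewer cells of a type and less RNA per cell cannot be told apart, and this holds for every value below. The 95% intervals show what the 4 libraries a group could resolve: from 0.781-fold to 1.02-fold for Cartpt, the tightest, and as wide as 0.592-fold to 1.197-fold for Lepr and 0.697-fold to 1.72-fold for Agrp.

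**Figure D3:**
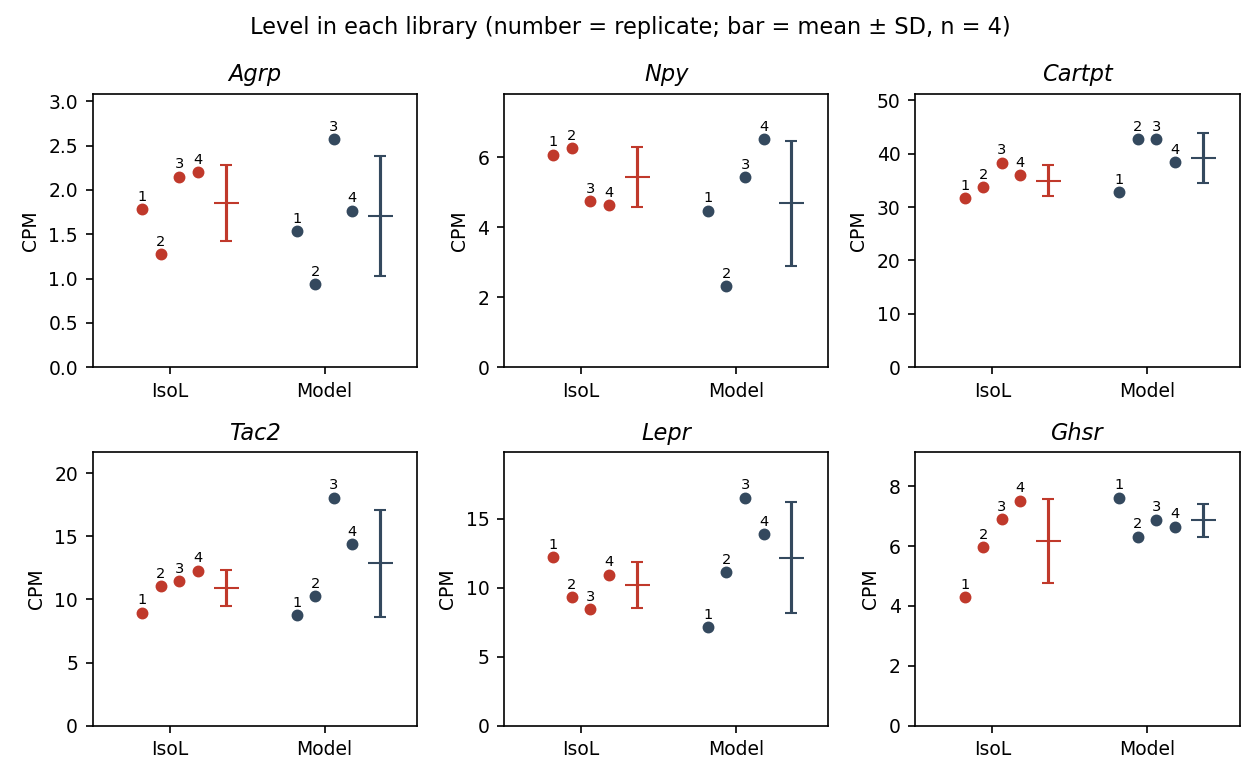
TMM-scaled CPM (y axis) of each of the 6 tested genes in each library, IsoL left of Model, with the replicate number above each point and the mean ± SD (n = 4) beside them. The groups overlap in every panel; the lowest and highest library are both Model for Agrp, Npy, Tac2 and Lepr.

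The 2 peptides that drive feeding had means slightly above Model that did not pass the test. Agrp, an antagonist at melanocortin receptors, had 1.78, 1.27, 2.15 and 2.20 CPM in IsoL 1 to 4, and 1.54, 0.94, 2.57 and 1.76 CPM in Model 1 to 4. Model 2 was the lowest library and Model 3 the highest, and all 4 IsoL libraries lay between them. These values rest on few reads, 133 counts over the IsoL libraries and 100 over the Model libraries. The log2 fold change of Agrp was 0.13 (SE 0.30, 95% interval -0.52 to 0.78, edgeR adjusted p = 0.889), and without Model 2 it was -0.076.

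Npy, whose peptide acts through Y receptors to stimulate feeding and is also made by interneurons of cortex and hippocampus, had 6.07, 6.26, 4.74 and 4.63 CPM in IsoL 1 to 4, and 4.47, 2.31, 5.42 and 6.52 CPM in Model 1 to 4. Model 2, the library that stood apart over the whole table, was again the lowest, and the highest was Model 4. The log2 fold change of Npy was 0.21 (SE 0.25, 95% interval -0.34 to 0.77, edgeR adjusted p = 0.757), and without Model 2 it was -0.016. Markers of cortical interneurons summed to 241 to 275 CPM in IsoL and 240 to 301 CPM in Model, and their part in Npy was not tested.

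Since Agrp neurons make both peptides, the ratio of the 2 within a library does not depend on how many of these cells were sampled, as far as Npy comes from them. Agrp counts were 29.3, 20.4, 45.3 and 47.5% of Npy counts in IsoL 1 to 4, and 34.4, 40.5, 47.4 and 27.1% in Model 1 to 4. The ranges overlapped almost fully. On the log2 scale the ratio averaged -1.57 ± 0.58 in IsoL and -1.45 ± 0.35 in Model (SD, n = 4 each), a difference of -0.12 with a two-sided exact permutation p of 0.743, where the 70 splits allow none below 0.0286.

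Cartpt, the precursor of the peptide that restrains feeding, had the smallest p of the 6 genes and the most counts, 2487 over the IsoL libraries and 2331 over the Model libraries. It had 31.6, 33.7, 38.3 and 35.96 CPM in IsoL 1 to 4, and 32.8, 42.7, 42.7 and 38.3 CPM in Model 1 to 4. Only IsoL 1 lay below the lowest Model library, so 3 of 4 IsoL libraries were within the Model range. The log2 fold change of Cartpt was -0.17 (SE 0.09, 95% interval -0.36 to 0.02, unadjusted p = 0.0829, edgeR adjusted p = 0.448). The coefficient of variation was 8.30% in IsoL and 12.03% in Model, the smallest in IsoL among the 6 genes.

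Tac2, the neurokinin B precursor of the kisspeptin neurons, had 8.96, 11.1, 11.4 and 12.3 CPM in IsoL 1 to 4, and 8.74, 10.3, 18.1 and 14.4 CPM in Model 1 to 4. Every IsoL library lay within the Model range, and the lowest and highest of all 8 were Model 1 and Model 3. The log2 fold change was -0.23 (SE 0.21, 95% interval -0.69 to 0.23, edgeR adjusted p = 0.681). Tac2 is also made outside the arcuate nucleus, in the medial habenula among other regions, and markers of that nucleus summed to 344 to 411 CPM in IsoL and 314 to 389 CPM in Model. The mean centred log2 CPM of these markers was 0.19, 0.02, 0.24 and 0.46 in IsoL 1 to 4. In Model 1 to 4 it was -0.66, -0.53, 0.27 and 0.001. Within Model it was lowest in Model 1 and highest in Model 3, as Tac2 was. The part of these habenula markers in Tac2 was not tested.

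Lepr, the leptin receptor, had 12.2, 9.33, 8.47 and 10.9 CPM in IsoL 1 to 4, and 7.13, 11.1, 16.5 and 13.9 CPM in Model 1 to 4. The lowest and the highest library were both Model, Model 1 and Model 3, as for Tac2. The log2 fold change of Lepr was -0.25 (SE 0.23, 95% interval -0.76 to 0.26, edgeR adjusted p = 0.687).

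Lepr is also expressed by cells of the meninges and vessels, and the Model libraries that stood apart in Lepr and Tac2 stood apart in meningeal markers. The 8 markers of meningeal fibroblasts, led by Ptgds and Col1a2, summed to 499, 498, 640 and 654 CPM in IsoL 1 to 4, and to 178, 701, 1158 and 748 CPM in Model 1 to 4. Model 1 was thus lowest and Model 3 highest in all 3 measures. The IsoL libraries did not show this match for Lepr, which was highest in IsoL 1 (12.2 CPM) and lowest in IsoL 3 (8.47 CPM). Tac2 rose from 8.96 CPM in IsoL 1 to 12.3 CPM in IsoL 4. Of these 8 markers, 5 were below Model and 3 above, and 0 passed the adjusted test. Endothelial markers, led by Flt1 and Slco1a4, summed to 319 to 364 CPM in IsoL and 336 to 363 CPM in Model. Choroid plexus markers differed between libraries as well, at 757, 653, 88.9 and 36.9 CPM in IsoL 1 to 4 and 25.9 to 38.2 CPM in Model. The part of any of these tissues in Lepr or Tac2 was not tested.

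Ghsr, the ghrelin receptor, had 4.30, 5.97, 6.89 and 7.51 CPM in IsoL 1 to 4, and 7.62, 6.32, 6.88 and 6.65 CPM in Model 1 to 4. IsoL 1 and 2 were below all Model libraries, and IsoL 3 and 4 lay within their range. The log2 fold change of Ghsr was -0.15 (SE 0.16, 95% interval -0.50 to 0.20, edgeR adjusted p = 0.737). IsoL 1 and 2 are also the libraries rich in choroid plexus markers, led by Ttr at 609 and 521 CPM there, 44.8 and 0.458 CPM in IsoL 3 and 4, and 1.06 to 4.59 CPM in Model. The part of that tissue in Ghsr was not tested.

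The 6 tested genes were set beside a list of genes of other hypothalamic nuclei. Neither side is exclusive. The list holds factors expressed more widely in the hypothalamus, such as Nkx2-1 and Six3, and Cartpt, Npy, Tac2 and Lepr are also expressed outside the arcuate nucleus. The list was chosen with earlier results of these data known. All 15 of its tested genes were below Model, against 50.5% of all tested genes, with a median log2 fold change of -0.65. In edgeR, 1 passed the adjusted test as lower, against 0.158% of all tested genes. An unadjusted p under 0.05 was reached by 10, against 13.2%. Its most abundant members were Hcrt, at 26.3 ± 6.47 CPM in IsoL and 53.8 ± 13.99 CPM in Model (log2 fold change -1.03, edgeR adjusted p = 0.162), and Trh (thyrotropin-releasing hormone), at 27.0 ± 6.83 CPM in IsoL and 40.8 ± 6.56 CPM in Model (-0.60, edgeR adjusted p = 0.241). The gene that passed was Pmch, at 18.7 ± 3.73 CPM in IsoL and 34.7 ± 5.19 CPM in Model (log2 fold change -0.89, edgeR adjusted p = 0.0471). DESeq2 (adjusted p = 1.28e-06) and limma voom (adjusted p = 0.0256) also called Pmch. The edgeR call was kept with DESeq2 size factors (adjusted p = 0.0481), with no filter (0.0406) and without IsoL 1 and Model 2 (0.0271). It was lost when any single library other than IsoL 3 was left out (edgeR adjusted p of 0.0513 to 0.143). It was also lost with the replicate block (edgeR adjusted p = 0.155). With the list's score as a covariate, Pmch had a log2 fold change of -0.38 (edgeR adjusted p = 0.853). Pmch is itself part of that score, and the score does not overlap between the groups, so that fit cannot decide the call. The mean centred log2 CPM of the list was -0.84, -0.32, 0.01 and -0.22 in IsoL 1 to 4, and 0.38, 0.27, 0.35 and 0.36 in Model 1 to 4, with no overlap. That score is a mean over many genes and is not a like measure to a single gene. Taken singly, Nkx2-1, Hmx2, Sim1, Fezf1, Pmch and Hcrt did not overlap between the groups, and the other genes of the list did. Across all tested genes, 4.42% had all IsoL libraries below all Model libraries. Each of the 6 feeding genes overlapped between the groups. With the list's score as a covariate in edgeR, the log2 fold changes were 0.45 for Agrp, 0.018 for Npy, 0.011 for Cartpt, 0.12 for Tac2, -0.63 for Lepr and 0.46 for Ghsr, and none passed (edgeR adjusted p of 0.853 to 0.995). The score does not overlap between the groups, so in that fit it and the group cannot be told apart. Markers of tanycytes, the ependymal cells that line the ventricle beside the arcuate nucleus, summed to 76.9 to 83.6 CPM in IsoL and 62.5 to 89.1 CPM in Model. Markers of the dorsal midbrain and Edinger-Westphal nucleus summed to 20.8 to 45.0 CPM in IsoL and 7.48 to 16.8 CPM in Model. All 8 of these midbrain markers were above Model, and 3 passed edgeR's adjusted test as higher, against 0.117% of all tested genes. The part of regional makeup in any of these differences was not tested.

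**Figure D4:**
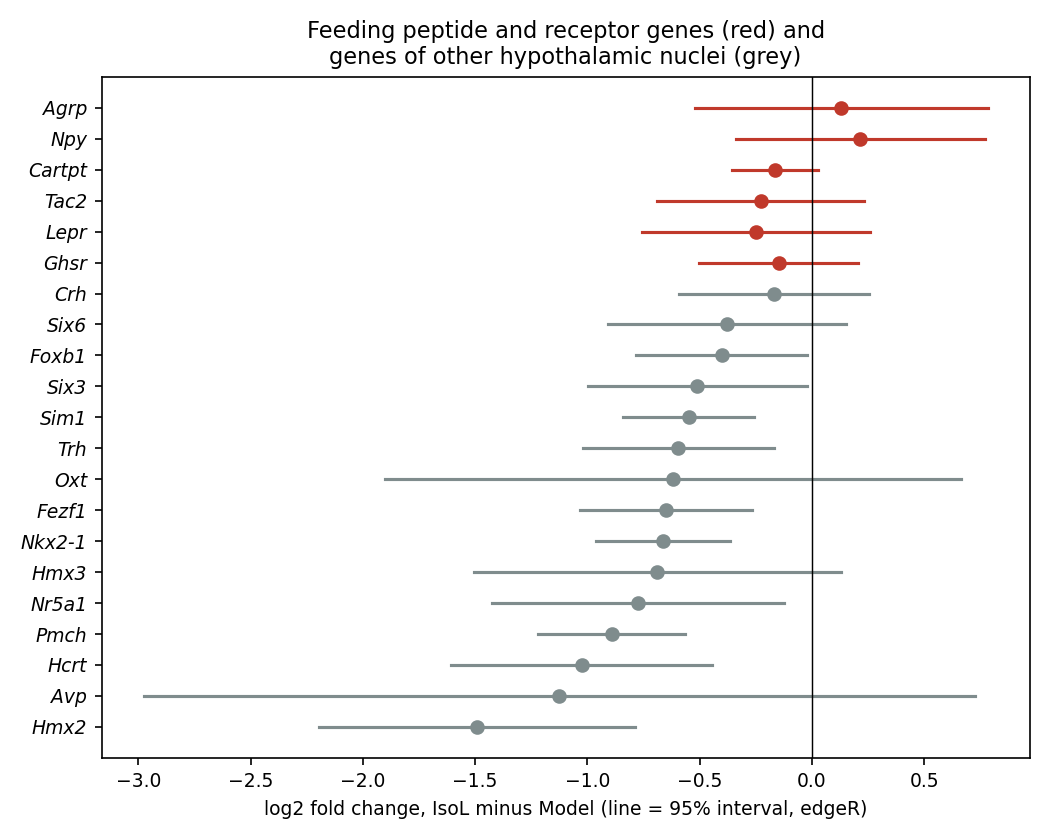
Log2 fold change of IsoL minus Model (x axis) with its 95% interval from edgeR, for the 6 tested genes (red) and for genes of other hypothalamic nuclei (grey). Some of the grey genes are expressed more widely in the hypothalamus. The red intervals all include 0, with estimates from -0.25 to 0.21, and every grey estimate is below 0.

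Other genes of arcuate neurons were listed too, some of them also made elsewhere. Of 15 tested, 12 were below Model and 3 above, with a median log2 fold change of -0.27. In edgeR, 0 passed the adjusted test and 7 had an unadjusted p under 0.05, against 0.275% and 13.2% of all tested genes. DESeq2 and limma voom called 3 each, against 2.14% and 1.64%. Pdyn, the dynorphin precursor that kisspeptin neurons make with Tac2 but that other hypothalamic neurons make too, had 13.0, 16.6, 20.04 and 19.6 CPM in IsoL 1 to 4, and 26.6, 24.7, 22.8 and 24.1 CPM in Model 1 to 4. Every IsoL library was below every Model library. Its log2 fold change was -0.50 (SE 0.12, edgeR adjusted p = 0.0979), and DESeq2 and limma voom called it at adjusted p of 0.0122 and 0.0496. Isl1, a transcription factor of developing arcuate neurons, averaged 9.43 ± 2.35 CPM in IsoL and 14.5 ± 1.95 CPM in Model (log2 fold change -0.62, edgeR adjusted p = 0.118), and was called by DESeq2 and limma voom at 0.0235 and 0.0234. Otp, a homeobox factor of Agrp and other hypothalamic neurons, was called by DESeq2 (adjusted p = 0.0212), and Pgr, the progesterone receptor, by limma voom (adjusted p = 0.0211).

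Ghrh, growth hormone-releasing hormone of the arcuate nucleus, had a higher mean in IsoL and the largest absolute fold of the 15. It had 1.23, 1.22, 2.15 and 1.56 CPM in IsoL 1 to 4, and 0.909, 1.001, 1.04 and 0.95 CPM in Model 1 to 4. Every IsoL library was above every Model library, at low counts, and the log2 fold change of 0.65 (SE 0.28, unadjusted p = 0.0347, edgeR adjusted p = 0.333) did not pass.

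Pomc was also above Model in its mean, with 5.03, 6.37, 9.29 and 6.55 CPM in IsoL 1 to 4, and 5.73, 3.82, 6.88 and 6.58 CPM in Model 1 to 4. Model 2 was its lowest library, as for Agrp and Npy, and the groups overlapped (log2 fold change 0.24, edgeR adjusted p = 0.657). Ghrh and Pomc were named after their values were seen.

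Peptide precursors are cut to release active peptides, and some of these peptides are also amidated. Of 7 genes listed for peptide precursor processing, an inhibitor among them, 4 were below Model and 3 above, with a median log2 fold change of -0.06. None passed edgeR's adjusted test, and 4 had an unadjusted p under 0.05, against 13.2% of all tested genes. DESeq2 and limma voom, which called 2.14% and 1.64% of all tested genes, each called 1 gene of this list. That gene was Pcsk2, the convertase that makes the final cuts, with 236, 234, 234 and 236 CPM in IsoL 1 to 4, and 268, 256, 256 and 267 CPM in Model 1 to 4. The groups did not overlap, and the IsoL libraries were nearly equal. Its log2 fold change was -0.15 (SE 0.04, edgeR adjusted p = 0.123, DESeq2 adjusted p = 0.00851, limma voom adjusted p = 0.0266), and without Model 2 edgeR called it at 0.0336. Pcsk1n, which encodes an inhibitor of the convertase Pcsk1, averaged 214 ± 10.8 CPM in IsoL and 253 ± 37.5 CPM in Model (log2 fold change -0.24, edgeR adjusted p = 0.285). Both genes are expressed by peptide-making neurons throughout the brain.

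RNA levels of genes of signalling downstream of the leptin receptor lay close to Model. These are levels in bulk tissue, and they do not measure leptin signalling itself. Of 12 tested genes, 5 were below Model and 7 above, with a median log2 fold change of 0.02. In edgeR, 0 passed the adjusted test and 0 had an unadjusted p under 0.05, against 0.275% and 13.2% of all tested genes. DESeq2 and limma voom called 0 each. The 2 with the smallest p were Irs2, an adaptor shared with insulin signalling, at 98.2 ± 3.21 CPM in IsoL and 105 ± 5.41 CPM in Model (log2 fold change -0.10, edgeR adjusted p = 0.440), and Jak2, the kinase bound to Lepr, at 62.5 ± 3.13 CPM in IsoL and 66.6 ± 1.84 CPM in Model (-0.09, edgeR adjusted p = 0.479). Socs3, a leptin-induced inhibitor of Lepr signalling, had a log2 fold change of 0.13 (95% interval -0.43 to 0.70) and was named after its values were seen.

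Of 12 ligands and receptors that pair with the 7 genes, 11 were tested and Lep, the leptin gene of fat cells, was at 0 counts in all libraries. Of the 11, 7 were below Model and 4 above, with a median log2 fold change of -0.09. In edgeR, 0 passed the adjusted test and 2 had an unadjusted p under 0.05, against 0.275% and 13.2% of all tested genes. DESeq2 and limma voom called 0 each. Mrap2, an accessory protein of melanocortin and ghrelin receptors, averaged 31.6 ± 1.62 CPM in IsoL and 38.1 ± 5.76 CPM in Model (log2 fold change -0.27, SE 0.09, edgeR adjusted p = 0.255). Mc3r, a melanocortin receptor found on Agrp neurons, averaged 2.52 ± 0.597 CPM in IsoL and 3.61 ± 0.520 CPM in Model (-0.52, SE 0.21, edgeR adjusted p = 0.313).

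Likeness of profile across libraries was measured as the root mean square difference of centred log2 CPM over the 8 libraries, where 0 means the same profile. It depends on how much a gene varies: a flat profile would lie at a distance equal to a gene's own spread over the 8 libraries, which was 0.41 for Agrp, 0.43 for Npy, 0.15 for Cartpt, 0.32 for Tac2, 0.36 for Lepr and 0.24 for Ghsr. Distances are therefore read against these and not ranked between pairs. Agrp and Npy, made by the same arcuate neurons, were 0.40 apart, just under the own spread of each. Tac2 and Lepr were 0.25 apart, under the own spread of each, and Cartpt and Ghsr 0.23 apart, above the own spread of Cartpt.

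The same measure over 14036 genes gave the genes closest in profile. For Cartpt these were Polr3e at 0.04 and Efnb1 at 0.06, against a median over all genes of 0.20. For Ghsr they were Scn7a at 0.07 and Siglech at 0.10 (median 0.27), and for Tac2 Anxa2 at 0.08 and Zfp658 at 0.12 (median 0.35). For Lepr they were Samsn1 at 0.10 and Mmrn2 at 0.14 (median 0.39), for Agrp Gucy1a2 and Sfi1 at 0.16 (median 0.43), and for Npy Srcap at 0.16 and Kcnj6 at 0.17 (median 0.46). None of these 12 nearest genes is another of the 6.

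**Figure D5:**
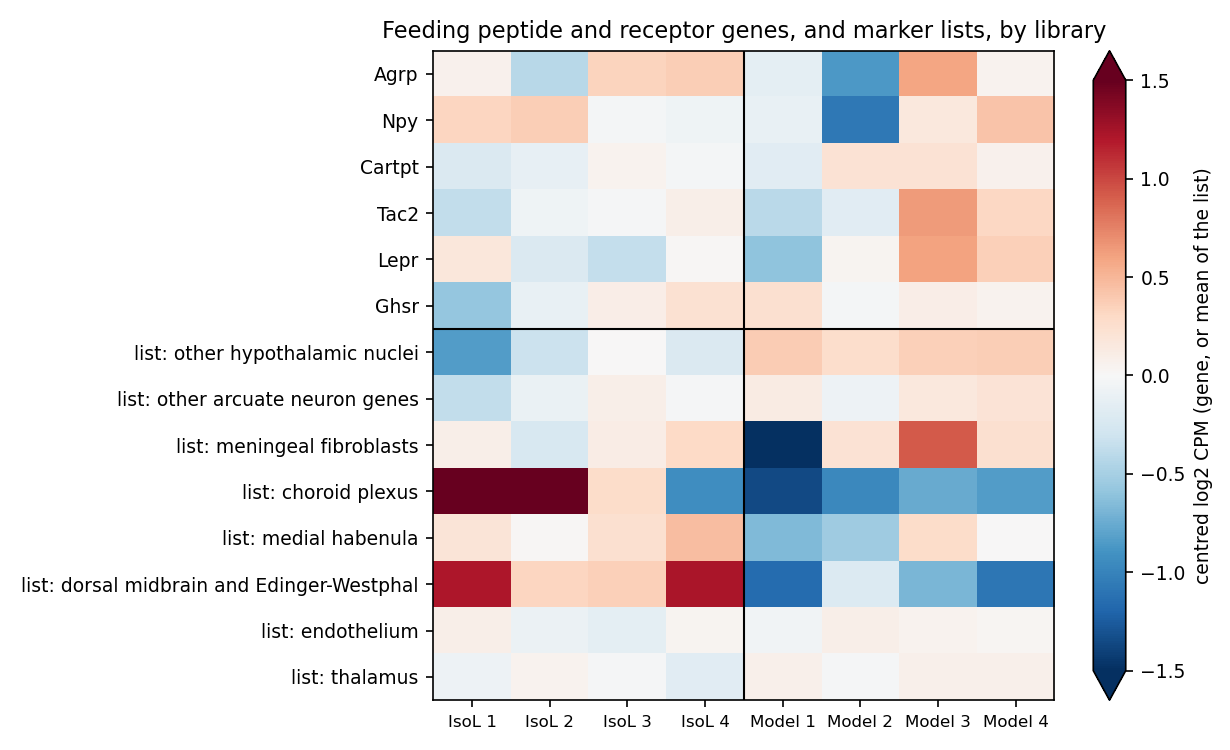
Centred log2 CPM (colour) in each library (columns, IsoL left of Model) for the 6 tested genes and, below the line, the mean over tested genes of 8 marker lists. Tac2 and Lepr are lowest in Model 1 and highest in Model 3, as the meningeal fibroblast list is. Within Model, the medial habenula list is also lowest in Model 1 and highest in Model 3. Agrp and Npy are lowest in Model 2. The list of other hypothalamic nuclei separates IsoL from Model.

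In the process terms attached to the table, Agrp, Cartpt, Ghsr and Npy were 4 of the 9 genes annotated to adult feeding behavior. Agrp, Ghsr and Lepr were 3 of 15 under regulation of feeding behavior, and Agrp, Cartpt, Npy and Tac2 were 4 of 108 under the neuropeptide signaling pathway.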

How the data were processed

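Polyadenylated RNA was sequenced in 8 libraries. The submitters' processing notes name fastp 0.22.0, HISAT2 2.1.0 and HTSeq 0.9.1; no source used here names the build, strand setting or overlap mode. Per the file headers, the authors deposited read counts, FPKM and gene length for each gene; the deposited FPKM equalled counts over length and summed counts within a relative difference of 1.11e-09. Of 21959 genes, filterByExpr kept 14536. The test was edgeR's quasi-likelihood F-test, robust, on TMM-scaled counts (factors 0.983 to 1.01), adjusted by Benjamini-Hochberg at 0.05 (edgeR 4.0.16, R 4.3.3); the common biological coefficient of variation was 9.06%. CPM are TMM-scaled and log2 fold changes are IsoL minus Model. DESeq2 1.42.0 and limma 3.58.1 (voom) were alternatives. The test was first checked on simulated data. It recovered 32.0% of genes changed 1.25-fold, 62.0% at 1.5-fold, 77.6% at 2-fold and 100% at 4-fold, with 11 false calls.

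The genes and lists were chosen with earlier results of these data known. Named were all 7 genes, the 2 genes of smallest p in each pathway list, the 2 most abundant of each marker list described, and the 2 nearest in profile. Exon overlaps were computed in GENCODE M21, strand ignored, among genes of the table. Floors cover counting error only.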

Additional observations from a re-analysis of the deposited data

How the results depend on the processing

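Over 90 alternatives for the 6 genes, 0 gave a call, the lowest adjusted p was 0.238 (edgeR), and 82 kept the direction. The estimates that turned were Agrp at -0.076 without Model 2 and -0.054 without IsoL 1 and Model 2; Npy at -0.016 without Model 2, -0.071 without both and -0.034 with limma voom; and, with the score of other hypothalamic nuclei as a covariate, Cartpt at 0.011, Tac2 at 0.12 and Ghsr at 0.46. The same covariate moved Agrp to 0.45, Npy to 0.018 and Lepr to -0.63 without turning them. Leaving out each library in turn, log2 fold changes ran from -0.076 to 0.40 for Agrp, -0.016 to 0.42 for Npy, -0.24 to -0.12 for Cartpt, -0.37 to -0.016 for Tac2, -0.43 to -0.061 for Lepr and -0.26 to -0.010 for Ghsr, and the log2 Agrp-to-Npy ratio from -0.29 to 0.12. The 40 changed genes of the table became 74 with no filter, 311 with DESeq2, 238 with limma voom, 1 with the covariate, 138 at an adjusted p of 0.1, 94 without IsoL 1 and Model 2, and 6 to 146 with each library left out, the most without Model 2. Called processing genes were 1 with DESeq2, 1 with limma voom and 0 to 1 with a library left out; called arcuate genes were 3, 3 and 0 to 1, with 1 each without IsoL 3 and without Model 2. The cause of these changes was not tested.

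The groups share replicate numbers, but same-numbered libraries correlated at 0.026, 0.020, 0.070 and 0.063 in their deviations from the group means. Only IsoL 3 and Model 4 correlated best with their own number. The highest correlation, 0.143, was between IsoL 2 and Model 1. With the replicate block, 17 genes passed, and the 6 genes had log2 fold changes of 0.15 (Agrp), 0.25 (Npy), -0.16 (Cartpt), -0.20 (Tac2), -0.22 (Lepr) and -0.17 (Ghsr), none called. The ratio of Kiss1 to Tac2 was not run, since Kiss1 had no counts. Depth limits Agrp most, with 15 to 48 counts per library.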
